A study of Mus musculus with 8 samples.

Results

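The genes described here encode 9 lysine acetyltransferases of histones and 1 acetyltransferase of RNA: Ep300, Crebbp, Kat2a, Kat2b, Kat5, Myst1, Myst2, Myst3, Myst4 and Nat10. Members were taken by gene name, as every non-control probe that the array files assign to one of these symbols, which gave 10 of 36163 gene names, 12 of 55681 probes and 21 spots per array. The arrays followed E14Tg2A mouse embryonic stem (ES) cells, of strain 129/Ola, through neuralization in vitro. ES cells were grown in serum with leukemia inhibitory factor (LIF) and collected at day 0. Epiblast-like aggregates (ELA) had spent 2 days floating in a defined minimal medium with N2 and B27, neural progenitor cells (NPC) had been plated on poly-ornithine and laminin and were collected at day 6, and neural precursors (NPC/Neu), from which B27 had been withdrawn, at day 10. At each of these 4 stages 1 array held total RNA and 1 array held Ago–RNA, the RNA that came down from the cytosol with an antibody against all Argonaute (Ago) proteins, and each array carried RNA pooled from 3 experiments on this 1 cell line. There is thus no replicate array and no test between stages, and no array with a control antibody was analysed here.

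Lysine acetyltransferases move the acetyl group of acetyl-CoA to histone tails, which loosens the contact between histones and DNA and offers docking sites to bromodomain proteins. p300 and CBP work as coactivators at enhancers, Gcn5 and Pcaf as the catalytic subunits of the SAGA and ATAC complexes, and the MYST family (Tip60, Mof, Hbo1, Moz and Morf) in complexes of its own. Nat10 acetylates cytidine in ribosomal, transfer and messenger RNA. Argonaute proteins are the core of the RNA-induced silencing complex (RISC), which holds mRNAs through microRNAs (miRNAs) and represses them. Ago enrichment, E, is the log2 of a gene's Ago–RNA signal divided by its total RNA signal at one stage, and ΔE is its change between consecutive stages. A negative ΔE means that less of the RNA was found with Ago relative to its total level. The ES–ELA transition stands for the priming of pluripotent cells before they take a lineage.

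Signals are log2 values after background correction and quantile normalization over the 8 arrays, so the overall amount of RNA recovered by each immunoprecipitation is not kept. Values were set against 17409 measured genes, whose mean signal over the 8 arrays lay above the binding threshold of 7.82, and all 10 genes were among them. Every one of the 12 probes was well above background and below saturation on all 8 arrays. Noise between spots came from 257 probes printed in 10 spots each: the spot SD was 0.07 to 0.11 for E and 0.11 to 0.14 for ΔE. It covers printing and scanning only, not cultures or immunoprecipitations. The ES Ago–RNA array was the brightest before normalization, with an upper quartile of 3039 intensity units against 1060 to 1774 on the other 7, and its part in the ES–ELA values was not tested. Markers mostly followed the labels in total RNA: Pou5f1, a pluripotency factor, read 15.21, 14.76, 7.98 and 8.31 from ES to NPC/Neu, and Sox1, a neural progenitor factor, 8.32, 8.39, 10.59 and 10.88. From ES to NPC/Neu 6 of 6 measured ES markers fell and 7 of 7 NPC markers rose. From ES to ELA 5 of 5 ELA markers rose, and from NPC to NPC/Neu 6 of 6 measured neuron markers rose. Against the labels, 6 of 6 ES markers rose from NPC to NPC/Neu, Esrrb by 1.96, and Klf4 rose by 0.47 from ELA to NPC. Of 7 mesendoderm markers 3 were measured, and all 3 were higher in NPC/Neu than in ES, Foxa2 by 3.35, and their part in the later values was not tested. In bulk RNA, fewer cells of a type cannot be told apart from less RNA per cell.

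In ES cells most of the acetyltransferase mRNAs were on the Ago side of the ratio. E was above 0 for 10 of 10 genes, against 51.6% of measured genes, and their median E was 0.90 against 0.03. For 9 genes E was beyond 2 spot SDs, while Myst1, at 0.02, lay within the spot SD of 0.09. Ep300 (2.18), Myst3 (1.60), Nat10 (1.24) and Myst4 (1.01) reached an E of at least 1, which is 2-fold, as did 12.8% of measured genes. In ELA the median dropped to 0.28 and no gene reached 1, against 4.2% of measured genes. ΔE at the ES–ELA transition was below 0 for 9 of 10 genes, against 50.9% of measured genes, with Myst1 as the exception. The median ΔE was -0.63 for the 10 genes and -0.01 for measured genes. Nat10 (-1.36), Ep300 (-1.19) and Myst3 (-1.10) fell by 2-fold or more, as did 7.45% of measured genes. E narrowed over the whole array at this transition: its SD over measured genes was 0.93 in ES and 0.57 in ELA. RNAs that stay in the nucleus, low in E in ES, moved the other way, with a ΔE above 0 for 5 of 5 measured and a median of 0.82, and Malat1 went from -4.39 to -2.47. The part of this narrowing in the values of the 10 genes was not tested, and all shares describe 1 pair of arrays per stage.

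**Figure D1:**
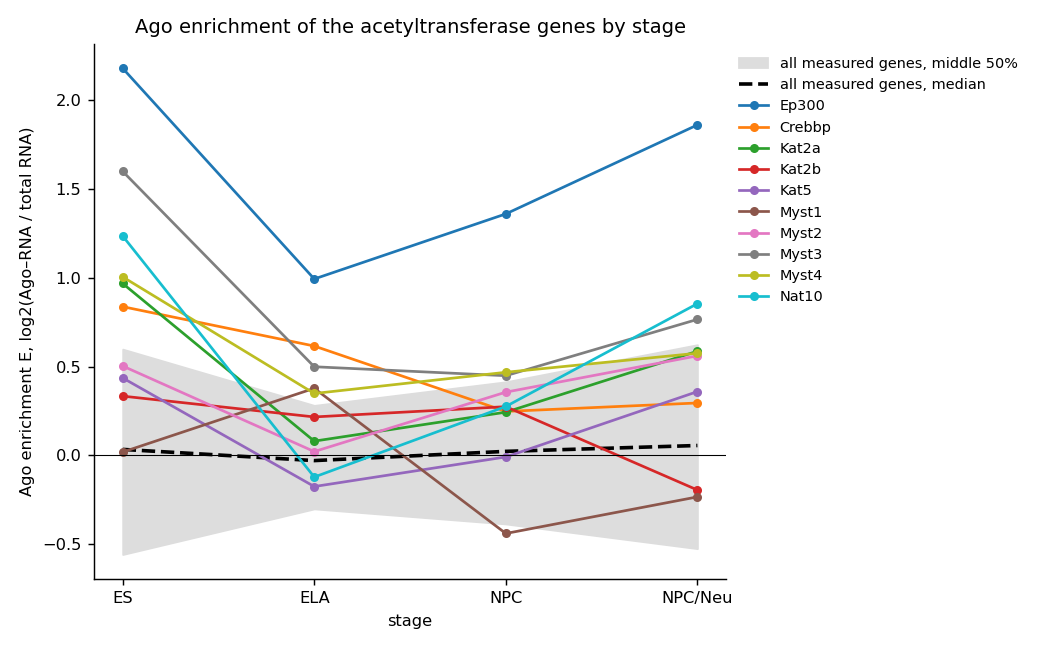
Ago enrichment E (log2, y axis) of each gene at the 4 stages (x axis), 1 pair of arrays per point, with the median and the middle 50% of all 17409 measured genes. Ep300 lies above the middle 50% at every stage, and 9 of the 10 lines go down from ES to ELA.

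None of the 10 genes met the study's own definition of release, which asks that Ago–RNA exceed the binding threshold, with an E of at least 2 at the first stage, an E of at most 0.5 at the next and a ΔE of at most -1.5. Only Ep300 had an E above 2 in ES cells, and its E in ELA was 0.99. For later analyses the study relaxed the limit of 0.5, to a value that Ep300 meets. The ΔE of Ep300, -1.19, did not reach -1.5 under either limit. Among measured genes 0.437% met the definition at the ES–ELA transition, 0.0977% at the ELA–NPC transition and 0.023% at the NPC–NPC/Neu transition.

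Ep300 encodes p300, a coactivator recruited by many transcription factors. Its probe lies in the 3′ UTR (last of 31 exons, chr15:81481567-81481626, plus strand; all coordinates are on mm9). From ES to NPC/Neu total RNA read 10.52, 10.70, 9.50 and 10.22. Ago–RNA read 12.70, 11.69, 10.86 and 12.09. The Ago–RNA signal was above the total RNA signal at all 4 stages, and E was 2.18, 0.99, 1.36 and 1.86. These were the highest E values of the 10 genes at each stage, at percentiles 99.4, 95.4, 97.2 and 97.6 of measured genes. Between ES and ELA total RNA differed by 0.18 while Ago–RNA fell by 1.01, a 2.01-fold decrease. At the ELA–NPC transition total RNA fell by 1.20, and from NPC to NPC/Neu Ago–RNA rose by 1.22 against 0.72 for total RNA.

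Crebbp encodes CBP, the close paralog of p300. Its only probe lies in the last of 31 exons (chr16:4084710-4084769, minus strand) and most of it is a run of 14 CAG or CAA triplets, shown here because it limits what the signal means, with the run in capitals.
Crebbp probe: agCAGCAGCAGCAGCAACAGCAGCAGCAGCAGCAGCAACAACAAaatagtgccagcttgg
Transcripts of 22 other genes matched this probe at 40 or more of its 60 bases, with Mn1 at 43, while no probe of the other 9 genes had such a match. Cross-hybridization to them was not tested, so the values are those of the probe. Total RNA rose from 13.65 in ES to 13.86, 14.37 and 15.05 at the later stages, by 1.40 in all. Ago–RNA read 14.48, 14.47, 14.62 and 15.34. E was therefore highest in ES, at 0.84, and then 0.62, 0.25 and 0.30. ΔE was -0.22 at the ES–ELA transition, inside 2 spot SDs of 0. Between the paralogs, p300 mRNA had the higher E at all 4 stages, with a difference that these single arrays and the repeat probe do not allow to be tested.

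Kat2a encodes Gcn5, the catalytic subunit of SAGA and ATAC. It had 2 probes in its last exon, 1 at the end of the 3′ UTR (chr11:100566069-100566128, minus strand) and 1 across the stop codon (chr11:100566536-100566595). Averaged over both, total RNA read 11.04, 11.51, 10.51 and 10.07 from ES to NPC/Neu, and Ago–RNA 12.01, 11.59, 10.75 and 10.65. E was 0.97 in ES and 0.08 in ELA, while total RNA was higher by 0.47. The normalized Ago–RNA signal thus went from almost 2-fold the total RNA signal to nearly level with it. An E near 0 marks level signals after normalization, not RNA absent from Ago. The probes gave a ΔE of -0.80 and -0.98, the same direction and a difference of the size of the spot noise. Later E was 0.24 in NPC and 0.59 in NPC/Neu, where the 2 probes read 0.72 and 0.45. Total RNA fell by 1.01 at the ELA–NPC transition, with -0.98 and -1.04 from the single probes.

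Kat2b encodes Pcaf, the paralog of Gcn5 in the same complexes. Its probe lies in the 3′ UTR (last of 18 exons, chr17:53811093-53811152, plus strand). Total RNA read 9.93, 9.05, 7.99 and 8.63, the widest range of the 10 genes at 1.95, or 3.85-fold. Ago–RNA read 10.26, 9.27, 8.26 and 8.44. Ago–RNA followed total RNA, so E stayed at 0.33, 0.22 and 0.27 over the first 3 stages and was -0.19 in NPC/Neu. ΔE was -0.12 at the ES–ELA transition, within the spot SD of 0.14, against -0.89 for Kat2a. At the ELA–NPC transition total RNA fell by 1.07, after a difference of -0.88 at the ES–ELA transition. The total RNA signal of 7.99 in NPC was close to the binding threshold of 7.82.

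Kat5 encodes Tip60, the acetyltransferase of the NuA4 complex, which acts in the DNA damage response and in histone variant exchange. Its 2 probes lie in the last of 13 exons, 1 ending at the stop codon (chr19:5603418-5603477, minus strand) and 1 at the end of the 3′ UTR (chr19:5603017-5603076). Their mean in total RNA was 13.06, 13.43, 13.22 and 13.61, and in Ago–RNA 13.49, 13.25, 13.21 and 13.97. The Ago–RNA signal was the higher in ES and NPC/Neu, where E was 0.44 and 0.36. In ELA and NPC the signals lay within 0.2 of each other, with an E of -0.18 and -0.01. ΔE from ES to ELA was -0.61, with -0.73 from the coding probe and -0.49 from the 3′ UTR probe. Total RNA stayed within a range of 0.55 over all stages.

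Myst1 (Kat8) encodes Mof, which acetylates histone H4 in the MSL and NSL complexes. Its probe lies in the 3′ UTR (last of 11 exons, chr7:135069179-135069238, plus strand) and was printed in 10 spots, so its values carry a spread between spots. Total RNA read 14.14, 14.27, 14.32 and 14.33, the narrowest range of the 10 genes at 0.19, or 1.14-fold. Ago–RNA read 14.16, 14.65, 13.88 and 14.10, highest in ELA and lowest in NPC. With total RNA nearly level, E from ES to NPC/Neu was 0.02 ± 0.04, 0.38 ± 0.07, -0.44 ± 0.04 and -0.23 ± 0.06 (SD, n = 10 spots of 1 array pair). The spots read from 0.28 to 0.55 in ELA, from -0.02 to 0.10 in ES and from -0.50 to -0.38 in NPC. This spread is of printing and scanning only, not of cultures or immunoprecipitations. Myst1 had the only ΔE above 0 from ES to ELA, at 0.36, and the lowest ΔE of the 10 genes from ELA to NPC, at -0.82, or percentile 5.7 of measured genes.

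Myst2 (Kat7) encodes Hbo1, an acetyltransferase tied to the licensing of replication origins. Its probe lies at the end of the 3′ UTR (last of 15 exons, chr11:95135574-95135633, minus strand). Total RNA read 14.58, 14.25, 14.12 and 14.01, lower at each stage, by 0.58 in all. Ago–RNA read 15.09, 14.28, 14.47 and 14.57. The pair met in ELA, where E was 0.02, and was apart at the other stages, with an E of 0.50 in ES, 0.36 in NPC and 0.56 in NPC/Neu. ΔE from ES to ELA was -0.48.

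Myst3 (Kat6a) encodes Moz, an acetyltransferase with roles in blood stem cells and in Hox gene expression. Its probe lies at the end of the 3′ UTR (last of 18 exons, chr8:24053632-24053691, plus strand). Total RNA read 11.93, 12.23, 13.10 and 13.56, higher at each stage, and the rise from ES to NPC/Neu was 1.63, or 3.09-fold. Ago–RNA read 13.53, 12.73, 13.55 and 14.33. Between ES and ELA the signals moved in opposite directions, total RNA by 0.30 and Ago–RNA by -0.80, which gave the ΔE of -1.10. E was 1.60, 0.50, 0.45 and 0.77 at the 4 stages, so it was level from ELA to NPC and higher by 0.32 in NPC/Neu. Myst3 thus had its highest Ago–RNA signal in NPC/Neu and its highest E in ES.

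Myst4 (Kat6b) encodes Morf, the paralog of Moz, known for its role in neural development. Its probe ends at the stop codon (last of 17 exons, chr14:22490036-22490095, plus strand). Total RNA read 10.83, 9.25, 9.17 and 10.05, and Ago–RNA 11.83, 9.60, 9.64 and 10.63. Both fell from ES to ELA, total RNA by 1.58, or 2.99-fold, at percentile 1.8 of measured genes. E was 1.01, 0.35, 0.47 and 0.58 in the same order. The paralogs Myst3 and Myst4 moved apart in total RNA at the ES–ELA transition, at 0.30 and -1.58, while ΔE was below 0 for both.

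Nat10 is the RNA cytidine acetyltransferase and acts in ribosome formation in the nucleolus. Its probe lies in the 3′ UTR (last of 29 exons, chr2:103561437-103561496, minus strand). From ES to NPC/Neu total RNA read 14.77, 14.63, 12.98 and 12.95. Ago–RNA read 16.01, 14.51, 13.25 and 13.80. At the ES–ELA transition total RNA differed by -0.14 while Ago–RNA fell 2.82-fold. E was 1.24 in ES and -0.12 in ELA, and the ΔE of -1.36 was at percentile 2.7 of measured genes. The drop of total RNA came at the next transition, by 1.65, or 3.15-fold, and E was higher again at 0.28 in NPC and 0.86 in NPC/Neu.

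**Figure D2:**
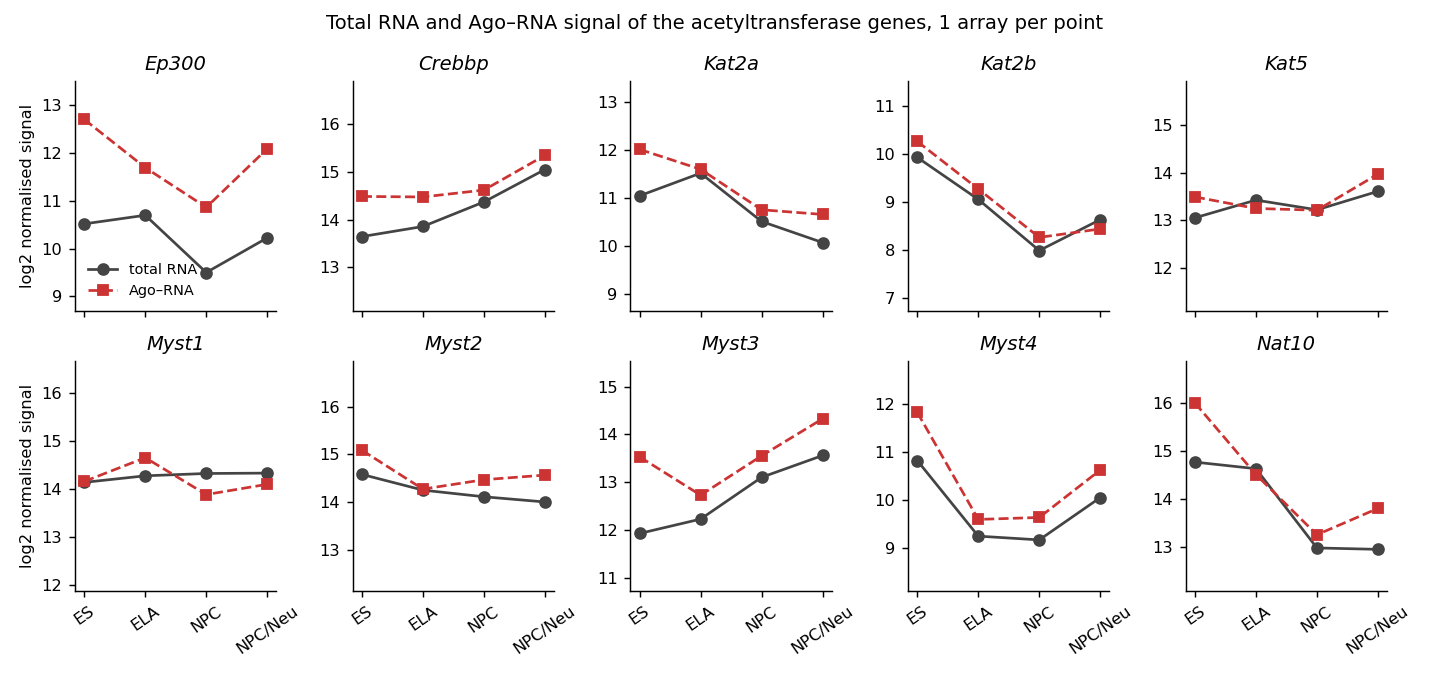
Log2 normalised signal (y axis, the same span of 4.8 in every panel) of total RNA and Ago–RNA for each gene at the 4 stages (x axis), 1 array per point, with probes of a gene averaged. Ago–RNA of Nat10 and Ep300 goes down from ES to ELA while total RNA stays level, and both signals of Myst4 go down together.

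Total RNA of the 10 genes shared no single direction. From ES to ELA only Myst4 fell by 2-fold or more, against 4.33% of measured genes, and no gene rose by that much, against 4.78%. From ELA to NPC Nat10, Ep300, Kat2b and Kat2a fell by 2-fold or more, 4 of 10 against 10.9% of measured genes, and the highest value was 0.87 for Myst3. Kat2a (-1.01) and Kat2b (-1.07) were close to the threshold and under it with Ago–RNA and total RNA arrays normalized apart, at -0.97 and -0.99, which left 2 genes. From NPC to NPC/Neu no gene changed by 2-fold, against 5.68% of measured genes up and 4.89% down, and the highest value was 0.88 for Myst4. From end to end, ES to NPC/Neu, Myst3 (1.63) and Crebbp (1.40) rose by 2-fold or more, against 18.9% of measured genes, and Nat10 (-1.82) and Kat2b (-1.30) fell by that much, against 19.2%. The median total RNA change of the 10 genes was 0.16, -0.17 and 0.42 at the 3 transitions, against 0.03, -0.02 and -0.06 for measured genes.

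**Figure D3:**
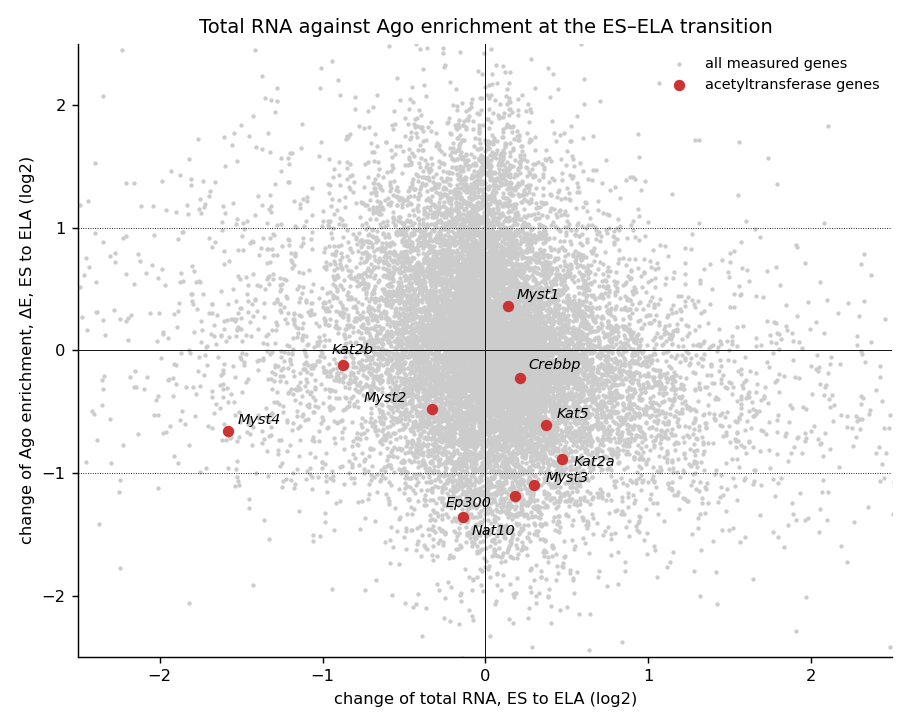
Change of total RNA (x axis, log2) against ΔE (y axis, log2) from ES to ELA for the 10 genes and all measured genes, 1 pair of arrays per stage; 174 measured genes lie outside the plotted range and dotted lines mark 2-fold. Nat10, Ep300 and Myst3 lie below -1 in ΔE with total RNA changes of -0.14, 0.18 and 0.30, and Myst4 alone lies below -1 in total RNA.

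After ELA the enrichment of most genes moved back toward the ES level without a 2-fold step. The spread of E over the whole array grew again at the same time. From its ELA low of 0.57, the SD over measured genes reached 0.73 by day 6 (NPC). By day 10 (NPC/Neu) it stood at 1.01. How far the later rise of the 10 genes goes with this widening was not tested. No gene reached a ΔE of 1 or -1 at the ELA–NPC transition, against 1.9% and 3.52% of measured genes, or at the NPC–NPC/Neu transition, against 2.27% and 4.58%. Shares this small leave few or no genes expected among 10, so these counts do not set the 10 genes apart. From NPC to NPC/Neu ΔE was above 0 for 9 of 10 genes, against 52.3% of measured genes, with Kat2b (-0.47) as the exception. Of these 9, Crebbp (0.05) lay within the spot SD of 0.11 and read -0.06 with Ago–RNA and total RNA arrays normalized apart. The highest values were 0.58 for Nat10 and 0.50 for Ep300. Ep300, Kat2a, Kat5, Myst2, Myst4 and Nat10 had a lower E in ELA than in ES and a higher one at each later stage, 6 of 10 genes against 26.0% of measured genes. Both later steps of Myst4, 0.120 and 0.107, lay within the spot SDs of 0.134 and 0.109. The first later step of Kat2a (0.163) and Kat5 (0.167) was inside 2 spot SDs. E was highest in ES for 8 genes, all but Myst1 and Myst2, against 27.0% of measured genes. In NPC/Neu only Ep300 had an E of at least 1, against 13.6% of measured genes.

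The values of the ES–ELA transition were recomputed with other background offsets, with the scanner's own processed signal, with other normalizations and, for Kat2a and Kat5, with the brighter probe alone. ΔE kept its sign for all 10 genes under each of these settings. Ep300 and Myst3 stayed below -1 in all of them, and Nat10 in all but 1, the processed signal scaled to its 75th percentile, where ΔE was -0.97. That scaling also moved the median ΔE of all measured genes to 0.12, so relative to it the ΔE of Nat10 was -1.10.

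**Figure D4:**
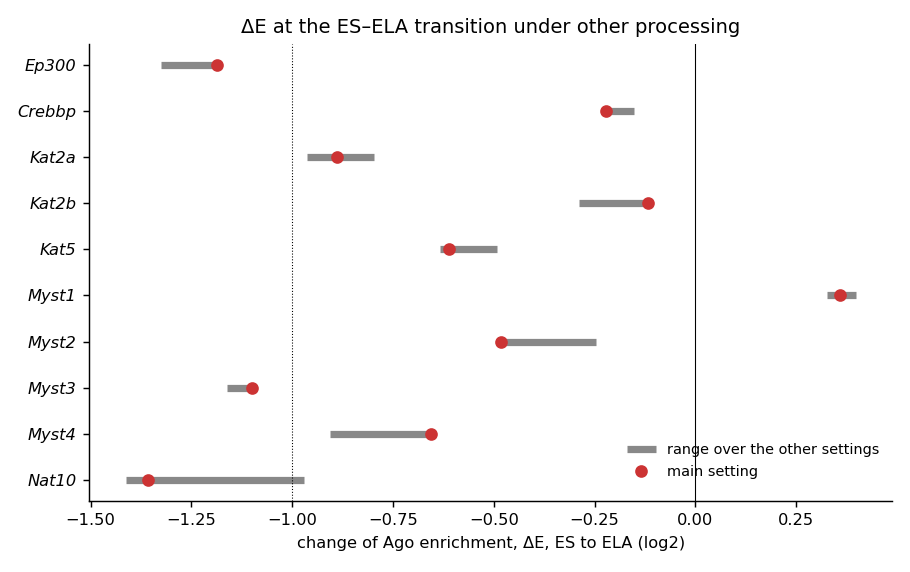
ΔE from ES to ELA (x axis, log2) of each gene under the main setting (points) and its range over the other settings (bars), with a dotted line at -1. The bars of Ep300 and Myst3 lie wholly below -1, that of Nat10 reaches -0.97, and none crosses 0.

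Ago enrichment went with transcript length across the array, and these genes differ widely in length. Across 12747 measured genes with an annotated transcript, which are not independent replicates, Spearman's rho between E in ES cells and transcript length was 0.62. It was 0.39, 0.39 and 0.52 at the later stages, and -0.50 for ΔE from ES to ELA. The 10 genes had a median transcript of 4266 nucleotides against 2820 for measured genes. Myst1, with the shortest transcript at 1573 nucleotides, had the lowest E in ES, and Ep300 and Myst3, with 8749 and 9113 nucleotides, had the highest. Over the 10 genes rho was 0.72 for E in ES and -0.42 for ΔE from ES to ELA, and 0.77 and -0.55 without Crebbp, whose annotated transcript has no 3′ UTR. Nat10 went against this order, with the lowest ΔE and a transcript of 3879 nucleotides. The part of length in the enrichment values was not tested.

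**Figure D5:**
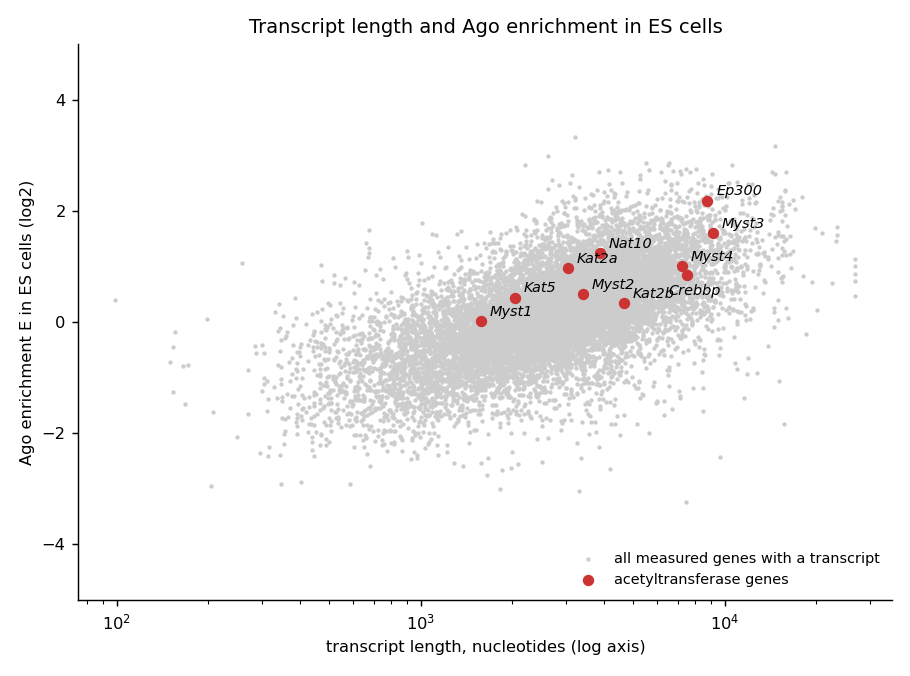
Transcript length (x axis, log scale, nucleotides) against Ago enrichment E in ES cells (y axis, log2) for the 10 genes and measured genes with an annotated transcript. Ep300 and Myst3 lie at the long, high end and Myst1 at the short end.

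Ago holds mRNAs through miRNA seeds, so the annotated 3′ UTRs were searched, on the sense strand, for words that pair with bases 2 to 8 of 3 miRNAs known from ES cells or neural cells. Mature sequences are from RefSeq (GRCm38.p6), with the seed in capitals.
miR-294-3p: aAAGUGCUucccuuuugugugu
let-7a-5p: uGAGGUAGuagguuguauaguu
miR-9-5p: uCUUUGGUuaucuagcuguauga
The miR-294 family prevails in ES cells, let-7 in differentiated cells and miR-9 in neural cells. The seed of miR-294, of the miR-290 cluster, is shared with miR-302. The paper reports that members of the miR-290 cluster fell from ES to ELA and members of the miR-302 cluster rose. The word AGCACTT, which pairs with the miR-294 seed, is in the 3′ UTR of 12.7% of 19088 genes and of 1 of the 9 members with an annotated 3′ UTR, Kat2b; Crebbp has none and could not be searched. CTACCTC, for let-7, is in 7.78% of genes and in none of these 9. ACCAAAG, for miR-9, is in 10.5% of genes and in Kat2b, Kat5 and Myst2. The sites follow, with the word in capitals.
Kat2b, miR-294: tgtaataattAGCACTTttgaaaaaca
Kat2b, miR-9: ctgaattctcACCAAAGtttaggccag
Kat5, miR-9: gaacacgtggACCAAAGggatccaggc
Myst2, miR-9: catggttgccACCAAAGggccctttcc
Kat2b, with the only miR-294 word, had an E of 0.33 in ES, the second lowest of the 10 genes, and Ep300, Myst3 and Nat10, which had the highest E in ES, hold none of these words in the annotated 3′ UTR. A word is a description of the sequence and not a site shown to be bound, and other miRNAs were not searched.

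The paper reports higher Ago enrichment in ES than in ELA for DNA methyltransferases, lysine demethylases and the SWI/SNF family. For its other chromatin regulator families it reports little or no such difference. The study's family list holds 7 further genes under histone acetyltransferases. The median ΔE of these 7 genes from ES to ELA was -0.72, and ΔE was below 0 for 6 of 7, against 50.9% of measured genes. This median and the -0.63 of the 10 genes are both short of 2-fold. The paper's comparison of families was not repeated here. Mgea5, which encodes the O-GlcNAcase, had an E of 2.27 in ES and a ΔE of -1.23. Ncoa1 and Ncoa3, steroid receptor coactivators that bind p300 and CBP, had an E of 1.56 and 1.59 in ES and a ΔE of -1.06 and -0.72. Elp3, of the Elongator complex, read -0.97, Cdyl, a chromodomain corepressor, -0.57, and Hat1, which acetylates new histone H4, -0.37. Clock, the circadian factor, was the exception at 0.30. Total RNA of Ncoa1 rose by 2.11 from ES to NPC/Neu while that of Ncoa3 fell by 2.06.

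Partner subunits of these enzymes lay on both sides of 0 in ΔE. Over 87 measured genes in 8 lists of complexes, readers and related enzymes, the further acetyltransferases included, ΔE from ES to ELA had a median of -0.35 and was below 0 for 60 genes, against a median of -0.01 and a share of 50.9% over measured genes. It was at or below -1 for 18 of them, against 7.45% of measured genes, and at or above 1 for 3, against 9.09%. Total RNA of the same genes had a median change of 0.05, with 2 genes at or below -1, against 4.33% of measured genes.

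Tip60 partners had a median ΔE of -0.59, with none of 17 at or above 1, against 9.09% of measured genes. At or below -1 were 6 of 17, against 7.45% of measured genes. These 6 were the helicase subunits Ruvbl2 (-1.61) and Ruvbl1 (-1.23), the chromatin remodeler Ep400 (-1.38), the scaffold Trrap (-1.17), which is also in SAGA, the actin-related Actl6a (-1.09) and Dmap1 (-1.06). The highest was 0.89 for Mrgbp, listed on the array as 1600027N09Rik. Mof partners had a median of -0.62, with the host cell factor Hcfc1 lowest at -1.41 and the MSL subunit Msl3 highest at 1.78. Msl3 was the only one of the 11 above the 0.36 of Mof itself. Scaffolds of Moz, Morf and Hbo1 had a median of -0.37, from -1.31 for Brpf1 to 0.78 for Meaf6.

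SAGA and ATAC subunits had a median ΔE of -0.26 over 22 measured genes, from -1.60 for Yeats2, the ATAC histone reader, to 1.24 for Taf10, a TBP-associated factor. Partners of p300 and CBP had a median of 0.07, from -0.74 for Ncoa2 to 1.15 for Cited1. None of these 9 was at or below -1, against 7.45% of measured genes. Protein N-terminal acetyltransferases and the Nat10 cofactor Thumpd1 had a median of 0.16, from -1.06 for Naa35 to 0.63 for Naa10. Thumpd1, which brings Nat10 to transfer RNA, read 0.16, against -1.36 for Nat10.

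Profiles were compared by root mean square difference over 19670 genes, and entries with accession, clone or predicted-gene names were then left out. The named genes whose E over the 4 stages came nearest to that of Nat10 were Ddx1 (0.06), Cct3 (0.07) and Iffo1 (0.07). E of Ddx1, an RNA helicase, was 1.25, -0.04, 0.30 and 0.94. Nearest to Myst1 were Hp1bp3 (0.05), Xrcc4 (0.06) and Ttr (0.07), of which Hp1bp3, a heterochromatin protein, had an E of -0.05, 0.42, -0.39 and -0.24. For Kat2b, with the widest range of total RNA, 19715 genes were compared in change of total RNA over the stages. The nearest named genes were Tle4 (0.06), Dus3l (0.07) and Dock5 (0.07). Each of these profiles has 4 points with 1 array or 1 pair of arrays at each.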

How the data were processed

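Total RNA and Ago–RNA were hybridized to 1-colour Agilent mouse 8x60K arrays, 8 arrays on 1 slide, from 50 ng of RNA per the labels. The authors deposited scanner intensity values from Agilent Feature Extraction (10.7.3.1 in the file headers, 9.1 in the labels), not normalized; their own pipeline used limma. Here mean and background intensity were corrected with limma 3.58.1 (normexp, offset 50), irregular and control spots were left out, and log2 values were quantile normalized over 8 arrays. Spots of a probe and then probes of a gene were averaged. For the binding threshold, 2 Gaussian components were fitted to the Ago–RNA arrays (mclust 6.1.1), and 3 SD were added to the mean of the lower one. A change was called at 2-fold, a rule of size: with 1 array per condition no p-value was computed, and precision is limited by how few arrays there are. Probes were placed on mm9 by exact match of 60 bases, and blastn 2.17.0 searched transcripts for other matches. Genes named here were all members, the study's further acetyltransferases, the lowest and highest ΔE of each reported partner list and the 3 nearest named genes by profile. The other partners were named after their values were seen. The result of 1 list is not reported here. Members and lists were chosen with earlier results of these data known. The code was tested on simulated arrays.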

Additional observations from a re-analysis of the deposited data

Results flagged for a closer look

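Kat2b and Myst1 had an Ago enrichment beyond 2 spot SDs on either side of 0 at different stages, and the difference between stages was not tested, since each stage had 1 pair of arrays. For Kat2b, E from ES to NPC/Neu was 0.33, 0.22, 0.27 and -0.19. For Myst1 the values in the same order were 0.02, 0.38, -0.44 and -0.23.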

How the results depend on the processing

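No called value changed direction under any setting. With Ago–RNA and total RNA arrays normalized apart, median E was 1.29, 0.50, 0.66 and 0.88 from ES to NPC/Neu, while the median of all measured genes was 0.22 to 0.28, and 2 genes fell by 2-fold in total RNA from ELA to NPC. With the processed signal scaled to its 75th percentile, median E in ES was 0.73, and the median total RNA change was -0.43 from ELA to NPC and 0.27 from NPC to NPC/Neu, with the median of all measured genes at -0.21, -0.19 and -0.13. With the processed signal quantile normalized, 1 gene, Myst4 (1.03), rose by 2-fold from NPC to NPC/Neu. Leaving out Crebbp, chosen after its probe was seen, gave a median total RNA change of -0.58 from ES to NPC/Neu, against -0.43. The cause of these shifts was not tested. Single-gene changes moved beyond the spot SD in 27 of 60 cases under the 75th percentile scaling, against 7 with the processed signal quantile normalized, 6 with the arrays normalized apart, 2 with the brighter probe and 2 with offset 0. The filter on dim probes and the median over probes could not change them, since all 12 probes passed and no gene had over 2 probes. ΔE of Kat2b from ELA to NPC was 0.06, and -0.16 under the 75th percentile scaling. ΔE of Crebbp from NPC to NPC/Neu was 0.05, and -0.06 with the arrays normalized apart. E is itself the difference within the pair of arrays of a stage, and with 1 pair per stage no block could be added to a comparison of stages. Spot noise is the only error these arrays give, and signals of different probes are not comparable levels.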
